A study of Mus musculus with 18 samples.

Results

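Complement is the blood and tissue protein cascade that tags microbes and debris, and 9 of its genes were followed here through the cells of mouse skin: C1ra, C1s1, C4b, C2, C3, Cfb, Cfd, Serping1 and C3ar1. They are 9 of the 32285 genes in the deposited matrices and were taken by their symbols. Each of the 18 libraries holds live cells, captured singly, from the skin of the back (dorsal dermis) of 1 wild-type C57BL/6J male, kept under a light-dark cycle and collected in telogen, the resting phase of the hair cycle. There are 3 libraries at each of 6 zeitgeber times (ZT, hours from lights on), ZT2, ZT6, ZT10, ZT14, ZT18 and ZT22, and the 3 replicates of a time come from different days of collection. No mouse carried a transgene or received a treatment, so the zeitgeber time is the only condition. The mice were young adults. Fat and vessels were scraped from the dermis, which was then digested with collagenase, and live cells were sorted before single-cell capture.

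In the classical pathway, C1q bound to a surface activates the proteases C1r and C1s, which cut C4 and C2 to form an enzyme that cleaves C3. In the alternative pathway, factor D cuts factor B on C3b, and the resulting enzyme cleaves more C3. The C1 inhibitor, encoded by Serping1, shuts off C1r and C1s, and the receptor encoded by C3ar1 senses the C3a fragment on myeloid cells. The liver makes most of the circulating proteins, while fibroblasts and macrophages are known local sources.

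A level here is the number of unique molecular identifiers (UMIs, 1 per captured transcript) of a gene per 10000 UMIs, in the summed counts of a cell type in 1 library. The libraries held from 4850221 to 40827442 UMIs and from 177 to 1998 cells that passed the filter. Clusters carrying fibroblast markers (Col1a1, Col1a2, Col3a1, Dcn, Lum, Pdgfra), called fibroblasts from here on, held 12100 of 16877 cells, and those carrying macrophage markers held 1555. All 6 fibroblast markers were detected in fibroblasts, where their summed level was between 635 and 1115 per 10000, against 2.77 to 9.72 in macrophages. The 8 macrophage markers summed to between 122 and 140 in macrophages and between 0.176 and 0.376 in fibroblasts. T cells, a type chosen because it should largely lack these transcripts, served as the measure of free RNA in the droplets. The measure is rough. T cells had a median of 7070 UMIs against 12860 in macrophages, so their level may overstate free RNA in macrophages. Their sums also held 31 UMIs of C1qa and 58 of C1qb, genes counted mostly in macrophages. The smallest library, ZT18 replicate 1, gave 106 fibroblasts and 15 macrophages. Of the barcodes, 164 of 23824 occurred in more than 1 library, and 89 of them were shared by ZT6 replicate 2 and ZT10 replicate 3. All 89 passed the filter in ZT10 replicate 3 and 0 passed in ZT6 replicate 2. Without ZT10 replicate 3, the counts of rhythmic genes given below for the 9 members stayed at 0 in fibroblasts and in macrophages.

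Several of these genes are neighbours on the chromosome. On the GRCm38 build, C1ra lies at chr6:124512405-124523443 on the plus strand, and C1s1 at chr6:124530345-124542359 on the minus strand. The gap between them is 6901 bp. On chromosome 17, all on the minus strand, lie C4b at chr17:34728380-34743882, Cfb at chr17:34856374-34862518, C2 at chr17:34862604-34898265 and C3 at chr17:57203970-57228136. Only 85 bp separate Cfb and C2, and an annotated read-through gene, Gm20547, overlaps both. Serping1 lies at chr2:84765387-84775444 and C3ar1 at chr6:122847138-122856161, both on the minus strand, and Cfd at chr10:79890853-79892655 on the plus strand. C4b, C1ra and C1s1 have near copies, C4a, C1rb and C1s2. Reads shared by a pair could have been left uncounted or assigned to either. In fibroblasts the copies were counted at 0.00228, 0.00419 and 0.00318 UMIs per 10000, against 2.78, 5.33 and 7.78 for C4b, C1ra and C1s1.

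Promoter sequences (from 250 bases before to 50 after the start site, RefSeq, GRCm38.p6) are shown for C3, C1ra and C1s1, which were far higher in fibroblasts than in macrophages, and for C3ar1, which was the reverse. They were found for 5 of the 9 genes, and C2, C4b, Cfb and Serping1 are not among them. Capitals mark matches on either strand. Both strands were searched for the TATA box as TATAAA and for the C/EBP letters as TTGCNNAA. The GAS element of STAT factors was searched as TTCNNNGAA. AP-1 was searched as TGANTCA. The E-box was searched as CACGTG. No 2 matches overlap in these windows.
C3, chr17:57228087-57228386, minus strand: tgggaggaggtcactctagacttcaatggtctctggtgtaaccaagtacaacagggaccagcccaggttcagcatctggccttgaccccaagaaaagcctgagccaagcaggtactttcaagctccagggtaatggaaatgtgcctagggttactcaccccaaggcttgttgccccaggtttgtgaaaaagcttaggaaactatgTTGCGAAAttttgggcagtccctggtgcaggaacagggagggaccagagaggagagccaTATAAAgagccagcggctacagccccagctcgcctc
C1ra, chr6:124512371-124512670, plus strand: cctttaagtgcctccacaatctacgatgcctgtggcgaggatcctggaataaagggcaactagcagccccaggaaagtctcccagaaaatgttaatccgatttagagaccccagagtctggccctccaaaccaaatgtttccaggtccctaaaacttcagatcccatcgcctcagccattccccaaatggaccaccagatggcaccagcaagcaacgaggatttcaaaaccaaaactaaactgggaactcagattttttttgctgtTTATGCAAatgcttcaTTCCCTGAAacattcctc
C1s1, chr6:124542310-124542609, minus strand: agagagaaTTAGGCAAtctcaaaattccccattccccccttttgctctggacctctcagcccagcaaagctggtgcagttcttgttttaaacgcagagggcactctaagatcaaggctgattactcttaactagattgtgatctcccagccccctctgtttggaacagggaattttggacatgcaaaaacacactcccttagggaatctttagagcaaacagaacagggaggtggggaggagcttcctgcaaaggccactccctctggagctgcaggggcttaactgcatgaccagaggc
C3ar1, chr6:122856108-122856407, minus strand: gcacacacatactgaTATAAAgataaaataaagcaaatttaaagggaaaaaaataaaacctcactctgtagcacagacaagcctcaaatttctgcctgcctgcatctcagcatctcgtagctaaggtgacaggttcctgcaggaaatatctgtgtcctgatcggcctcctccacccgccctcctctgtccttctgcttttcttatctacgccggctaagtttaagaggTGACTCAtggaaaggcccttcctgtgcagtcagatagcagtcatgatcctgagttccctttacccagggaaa

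The C/EBP letters are at position -45 from the start site in C3, 16 in C1ra and -242 in the C1s1 window shown. A second C1s1 start site in the table, with the window chr6:124542272-124542571, holds 0 matches to any of the 5 motifs, so the C1s1 match depends on the start site taken. The same letters occur in 10.8% of all 32851 promoters in the table. C1ra also holds the GAS letters at position 32, found in 8.30% of promoters. The C3ar1 promoter holds the AP-1 letters at position -22, found in 7.81%, and the TATA letters, found in 13.6%, which the C3 window also holds, at position 14. The E-box letters that clock factors bind, found in 7.15%, are in none of the 4 windows. These are matches of letters in a window and say nothing about binding.

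Fibroblasts and macrophages carried different parts of the cascade. Of the 9 genes, C1ra, C1s1, C3 and Serping1 were higher in fibroblasts in every library, and C4b, Cfb and C3ar1 were higher in macrophages in every library. Over all 13879 genes with at least 100 UMIs, 24.7% were higher in fibroblasts in every library and 17.2% were lower. C2 was at similar levels in both, and Cfd was near 0 in both. The cell types were built by clustering, from which these genes had been left out, so their levels by type are given as a description without a test.

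**Figure D1:**
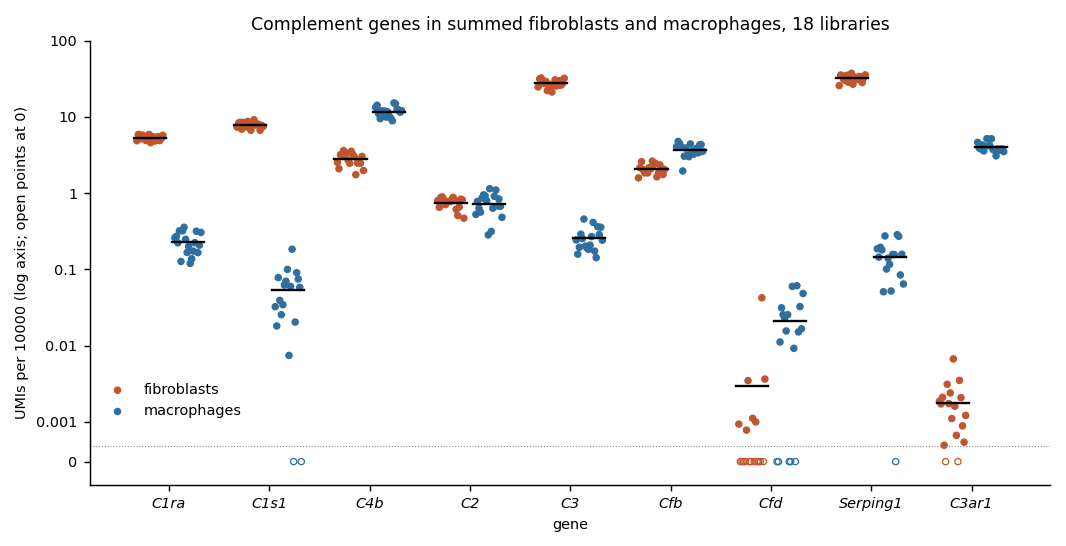
Level of each of the 9 genes (UMIs per 10000, log axis, 0 drawn as open points at the bottom) in summed fibroblasts (orange) and macrophages (blue) of 18 libraries, with the mean as a black line. C1ra, C1s1, C3 and Serping1 stand higher in fibroblasts, C4b, Cfb and C3ar1 higher in macrophages, and C2 overlaps.

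The genes of the C1 proteases were fibroblast genes. C1ra, which encodes C1r, had a lowest level of 4.59, a median of 5.29 and a highest of 5.90 per 10000 over the 18 fibroblast sums. In macrophages the lowest, median and highest levels were 0.120, 0.223 and 0.357. Every fibroblast value lay above every macrophage value, and the means of 5.33 ± 0.401 and 0.230 ± 0.0739 (SD, n = 18 each) differed 23.1-fold. T cells held 1 C1ra UMI among 1351519, so the 490 C1ra UMIs of macrophages were above that measure of free RNA.

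C1s1, which encodes C1s, was also a fibroblast gene, with a lowest level of 6.67, a median of 7.78 and a highest of 9.17. Its macrophage levels ran from 0 to 0.184 with a median of 0.0486, and they did not reach the lowest fibroblast level. The means were 7.78 ± 0.688 in fibroblasts and 0.0530 ± 0.0447 in macrophages (SD, n = 18 each). The summed level of 0.0592 in T cells was as high as in macrophages, so C1s1 in macrophages was not distinguishable from free RNA by this measure. An annotated antisense gene, Gm16567, overlaps C1s1 and had 134 UMIs in all barcodes, against 219342 for C1s1 in the cells that passed the filter.

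C4b, which encodes the C4 protein cut by C1s, went the other way. Over the fibroblast sums it had a lowest level of 1.75, a median of 2.85 and a highest of 3.62, and over the macrophage sums 8.89, 11.8 and 15.3. The ranges did not overlap, and the macrophage mean of 11.8 ± 1.83 was 4.24 times the fibroblast mean of 2.78 ± 0.531 (SD, n = 18 each). The T cell level was 0.0296.

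C2, the partner of C4 in the enzyme that cleaves C3, was similar in the 2 cell types. Its fibroblast levels ran from 0.469 to 0.893 with a median of 0.788, and its macrophage levels from 0.283 to 1.14 with a median of 0.728. Macrophages were higher in 11 libraries and fibroblasts in 7, and the means of 0.747 ± 0.123 and 0.727 ± 0.241 (SD, n = 18 each) gave a log2 ratio of 0.04. The ratio was -0.02 with finer clusters and -0.01 without ZT10 replicate 3, and neither type was higher beyond the spread. T cells were at 0.118.

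C3, the central protein of all pathways, was a fibroblast gene, with a lowest level of 21.3, a median of 27.2 and a highest of 32.5. In macrophages it ran from 0.142 to 0.457 with a median of 0.242, far below every fibroblast library. The means were 27.5 ± 3.19 and 0.257 ± 0.0898 (SD, n = 18 each). The T cell level of 0.200 was within 1 SD of the macrophage mean. By this measure C3 in macrophages was not distinguishable from free RNA, and its ratio is not given. Monocytes stood between, at 1.00 ± 0.186 (SD, n = 6 libraries with at least 10 such cells).

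Cfb, which encodes factor B, was found in both cell types. Its fibroblast levels ran from 1.59 to 2.63 with a median of 2.04, and its macrophage levels from 1.95 to 4.78 with a median of 3.71. The ranges overlapped across libraries, yet within each of the 18 libraries macrophages were higher, by 1.78 times on the means (3.70 ± 0.684 against 2.07 ± 0.308, SD). The T cell level was 0.00740. Cfb and C2 are adjacent, and transcripts running from C2 into Cfb cannot be told apart from Cfb in these counts.

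Cfd, which encodes factor D and is known as adipsin, a product of fat cells, was close to absent from both cell types. It had 109 UMIs among 271402889 in fibroblasts and 43 among 21320500 in macrophages. Of the 96 Cfd UMIs in the Cxcl14 subtype of fibroblasts, 89 came from 1 barcode of ZT22 replicate 1, which also held 84 UMIs of the 8 adipocyte genes (Adipoq, Plin1, Cidec, Retn, Lep, Car3, Fabp4, Pparg) among 2108. Without that barcode, fibroblasts held 20 Cfd UMIs in all. Adipoq was at 0 in 17 of 18 fibroblast sums and Lep likewise, while Pparg was found in all 18 at a median of 0.0132 per 10000. T cells had 0 Cfd UMIs of 1351519, which allows a level of up to 0.0222 per 10000 by counting error alone. By this measure Cfd in macrophages, at a mean of 0.0208, was not distinguishable from free RNA.

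Serping1, which encodes the C1 inhibitor, was a fibroblast gene like its targets C1ra and C1s1. It had a lowest level of 25.8, a median of 32.5 and a highest of 37.4 in fibroblasts, and ran from 0 to 0.285 in macrophages. The means were 32.0 ± 3.25 and 0.145 ± 0.0803 (SD, n = 18 each). The T cell level of 0.185 was above the macrophage mean. By this measure Serping1 in macrophages was not distinguishable from free RNA, and its ratio is not given.

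C3ar1, which encodes the C3a receptor, was a macrophage gene. Macrophage levels had a lowest value of 3.08, a median of 3.81 and a highest of 5.17, and fibroblast levels ran from 0 to 0.00667. Fibroblasts held 46 C3ar1 UMIs in total and macrophages 8827, with means of 0.00176 ± 0.00156 and 4.05 ± 0.605 (SD, n = 18 each). The T cell level of 0.126, from 17 UMIs, was above the fibroblast mean, though 6 of 7 T cell sums were at 0. By this measure C3ar1 in fibroblasts was not distinguishable from free RNA. Monocytes were at 4.22 ± 1.27 (SD, n = 6), which overlapped with macrophages.

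The share of cells with at least 1 UMI is given beside the levels. After thinning each cell to 5000 UMIs, which left out 235 fibroblasts, 146 macrophages and 40 T cells, Serping1 was found in 99.8% of fibroblasts, C3 in 96.5%, C1s1 in 96.0% and C1ra in 90.4%. In macrophages the shares were 7.12%, 11.9%, 2.91% and 10.5%, and in T cells 8.27%, 9.88%, 3.82% and 0.491%. Of these 4 genes, only C1ra had a macrophage share well above that of T cells. C4b was found in 81.5% of macrophages, 45.0% of fibroblasts and 1.56% of T cells, and Cfb in 69.5%, 57.6% and 0.329%. C3ar1 was found in 80.7% of macrophages, 0.0842% of fibroblasts and 0.912% of T cells. Before thinning, the median cell had 22202 UMIs in fibroblasts, 12860 in macrophages and 7070 in T cells, and the C3 shares were 98.1%, 26.6% and 12.7%.

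Among fibroblasts, the subtypes differed most in C4b and C2. The 8 subtypes carry the names of genes that marked them: Sult1e1 (3674 cells), Pi16 (2604), Krtdap (2415), interferon-response (1036), Cthrc1 (746), Cxcl14 (585), inflammatory (544) and Cilp (496). A subtype enters with the libraries that hold at least 10 of its cells. The Cxcl14 fibroblasts, marked by Cxcl14, Steap4 and Gdf10, had the highest mean of all fibroblast subtypes for each of the 7 complement genes that fibroblasts carried. Comparing them with the Pi16 subtype in the 17 libraries that hold both, C2, C4b and C1s1 were higher in every library. Over 11432 genes, 3.37% were higher in every library in this comparison.

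**Figure D2:**
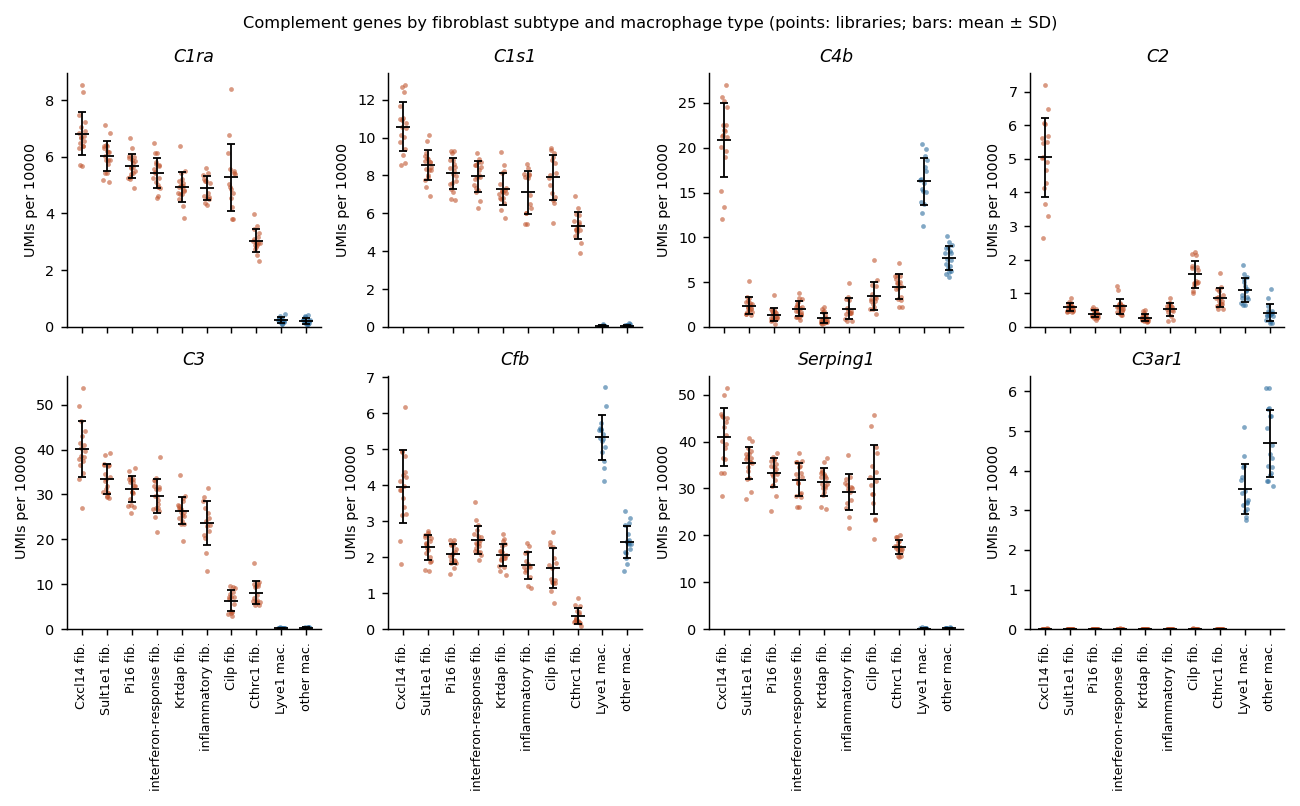
Level of 8 of the genes (UMIs per 10000) in the 8 fibroblast subtypes (orange) and both macrophage types (blue), with 1 point per library of at least 10 cells and the mean ± SD in black. The Cxcl14 fibroblasts stand apart for C4b and C2, and the Cthrc1 and Cilp fibroblasts are low for C3.

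C4b reached 20.8 ± 4.14 per 10000 in Cxcl14 fibroblasts (SD, n = 17). The next fibroblast subtypes were Cthrc1 at 4.48 ± 1.39 (n = 16) and Cilp at 3.41 ± 1.56 (n = 15), which differed by less than the larger SD, with Cthrc1 higher in 13 of 15 libraries. Sult1e1, interferon-response and inflammatory fibroblasts followed between 2.03 and 2.39, Pi16 at 1.36 ± 0.707 and Krtdap at 0.980 ± 0.583. Each of these 5 differed from its neighbour in the order by less than the larger SD, though Pi16 was above Krtdap in 15 of 18 libraries. In the 17 libraries with both, Cxcl14 fibroblasts had 14.7 times the C4b level of Pi16 fibroblasts. They were also above the Lyve1 macrophages, at 16.2 ± 2.58 (n = 16), in 14 of 15 libraries with both, with overlapping ranges.

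C2 followed nearly the same order. It reached 5.04 ± 1.17 in Cxcl14 fibroblasts (n = 17) and 1.57 ± 0.400 in Cilp fibroblasts (n = 15), without overlap between these subtypes. Cthrc1 fibroblasts had 0.865 ± 0.281, and the other 5 subtypes lay between 0.275 and 0.619. The lowest was Krtdap, which the Cxcl14 fibroblasts exceeded 18.1 times on the means. The Zbtb12 gene lies on the opposite strand within C2 and had 579 UMIs in all barcodes.

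The Cxcl14 fibroblasts were 585 of 12100 cells and held 4.63% of the fibroblast UMIs. They contributed 34.5% of the C4b UMIs and 31.4% of the C2 UMIs of fibroblasts, against 6.56% for C3 and 8.64% for Cfb. In the other direction, Krtdap fibroblasts held 19.2% of all UMIs but 6.83% of those of C4b and 6.77% of those of C2. In thinned cells, C4b was found in 94.5% of Cxcl14 fibroblasts, 36.3% of Pi16 and 31.4% of Krtdap fibroblasts, and C2 in 77.8%, 17.5% and 12.3%. The macrophage markers summed to a median of 0.333 in Cxcl14 fibroblasts and 0.252 in all fibroblasts, against 131 in macrophages, which carry C4b as well.

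C3 was high in 6 of the 8 fibroblast subtypes and low in the Cthrc1 and Cilp subtypes. Cxcl14, Sult1e1, Pi16, interferon-response, Krtdap and inflammatory fibroblasts lay between 23.6 and 40.2 per 10000, in that falling order. Of these neighbours the first pair alone differed by more than the larger SD over libraries. Within libraries that hold both, Cxcl14 fibroblasts were above Sult1e1 in 15 of 17, Sult1e1 above Pi16 in 16 of 18, by 2.16 ± 2.10 (SD of the differences), Pi16 above interferon-response in 13 of 18, interferon-response above Krtdap in 14 of 18 and Krtdap above inflammatory in 8 of 14. Cthrc1 fibroblasts had 8.15 ± 2.56 (n = 16) and Cilp fibroblasts 6.38 ± 2.34 (n = 15), which differed by less than the larger SD, with Cthrc1 higher in 11 of 15 libraries. In the 16 libraries with both, Cthrc1 fibroblasts were below Pi16 fibroblasts every time, by 3.81 times on the means. Cilp fibroblasts were nonetheless at 31.9 ± 7.39 for Serping1 and 5.27 ± 1.18 for C1ra, within the range of the other subtypes.

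The Cthrc1 fibroblasts, marked by Cthrc1, Tnmd, Postn and Col11a1, were the lowest fibroblast subtype for 4 genes. Their levels were 3.04 ± 0.396 for C1ra, 5.35 ± 0.708 for C1s1, 17.6 ± 1.45 for Serping1 and 0.364 ± 0.215 for Cfb (SD, n = 16 each). In 16 of 16 libraries each of these was below the Pi16 level, by 5.83 times for Cfb and 1.50 to 1.90 times for the other genes. For C2 and C4b they were above it, in 16 and in 15 of 16 libraries. The share of all genes that differ in every library was not counted for Cthrc1 against Pi16 fibroblasts.

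C1ra, C1s1 and Serping1 varied little among the other 7 subtypes. C1ra lay between 4.90 and 6.81, C1s1 between 7.12 and 10.6 and Serping1 between 29.2 and 41.0, with the Cxcl14 subtype at the upper and the inflammatory subtype at the lower end of each. Cfb was 3.96 ± 1.01 in Cxcl14 fibroblasts and 2.48 ± 0.394 in interferon-response fibroblasts, and 1.70 to 2.27 in Sult1e1, Pi16, Krtdap, inflammatory and Cilp fibroblasts.

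The macrophages divided as well. Lyve1 macrophages (649 cells, marked by Lyve1, Timd4, Folr2 and Cd163) and other macrophages (906 cells) both carried these 4 markers, at a median summed level of 61.3 against 28.3. In the 15 libraries with both, C4b was higher in Lyve1 macrophages in 15, at 16.1 against 7.41 per 10000 on the means, and Cfb in 15, at 5.42 against 2.45. C2 was higher in 14, at 1.11 against 0.394. C3ar1 was lower in Lyve1 macrophages in 14 of 15, at 3.59 against 4.77. How many of all genes differ this regularly between the macrophage types was not counted.

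Whether the levels change over the day was tested with a 24 h rhythm, fitted to the 18 sums of a cell type (a cosine and a sine term, edgeR's quasi-likelihood test, p adjusted by Benjamini-Hochberg over all genes tested). In fibroblasts, 0 of the 7 genes with enough counts passed an adjusted p of 0.05, and 1, C4b, was under 0.05 before adjustment. Over all 12791 genes, 3768 were under 0.05 before adjustment. DESeq2 also called 0 of 7, against 18.9% of all genes. The test called 13.3% of all 12791 genes in the same sums, among them 12 of 12 clock genes. Cfd and C3ar1 had too few counts in fibroblasts. The median log2 amplitude of the 7 was 0.0912, against 0.131 over all genes tested. A fitted amplitude is never negative and also rises with noise. The genes were not matched on level, so these medians do not show the members to be less rhythmic.

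C4b had the strongest signal in fibroblasts. Its levels were 3.26 ± 0.272 at ZT14 and 3.23 ± 0.338 at ZT6, the highest means, and 2.27 ± 0.456 at ZT18, the lowest (SD, n = 3 each). The 3 libraries of ZT14 (3.01 to 3.55) did not overlap with those of ZT18 (1.75 to 2.58). The fitted log2 amplitude was 0.22 ± 0.09 (jackknife SE), with a peak at 8.80 h and an edgeR adjusted p of 0.123 after Benjamini-Hochberg correction. The share of Cxcl14 fibroblasts, rich in C4b, also varied, from 3.48 ± 1.04% at ZT18 to 6.93 ± 0.269% at ZT6 (SD, n = 3 each). With those cells left out, the C4b level was highest at ZT14, at 2.61 ± 0.385, and lowest at ZT22, at 1.56 ± 0.382. The part of this share in the pooled C4b levels was not tested.

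C2 and C3 were less clear. C2 was highest at ZT14 (0.834 ± 0.0415) and lowest at ZT18 (0.593 ± 0.0767, SD, n = 3 each), with a log2 amplitude of 0.18 ± 0.09 and an edgeR adjusted p of 0.226. C3 was highest at ZT2 (29.6 ± 4.24) and lowest at ZT10 (24.9 ± 2.46), and these libraries overlapped. Its log2 amplitude was 0.12 ± 0.07 with an edgeR adjusted p of 0.242, and the fit placed its peak at 1.49 h.

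In fibroblasts, the other 4 genes had fitted log2 amplitudes of 0.06 ± 0.04 for C1ra, 0.04 ± 0.04 for C1s1, 0.09 ± 0.07 for Cfb and 0.02 ± 0.05 for Serping1 (jackknife SE), with edgeR adjusted p of 0.497 or more. Serping1 means ran from 30.9 at ZT14 to 32.8 at ZT18, beside SDs of 1.63 to 5.36 within a time. Cfb was highest at ZT14, where its 3 libraries (2.36 to 2.63) lay above those of ZT22 (up to 2.04). Here too the times were picked by their means, and the gap is not a test.

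In macrophages, 0 of the 8 genes tested passed the adjusted test and 1 was under 0.05 before adjustment, by edgeR, and DESeq2 called 0 as well. The edgeR test called 0.782% of the 8952 genes in these smaller sums, with 8 of 11 clock genes among them. Of the 8952 genes, 1220 were under 0.05 before adjustment. C3ar1 had the smallest p. It was at 4.82 ± 0.560 at ZT10 and 3.51 ± 0.381 at ZT18 (SD, n = 3 each), without overlap between the 3 libraries of each. A gap between times picked after seeing the values is not a test. The log2 amplitude was 0.21 ± 0.06 with a peak at 8.67 h and an edgeR adjusted p of 0.225.

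The time course of C4b was set side by side in the 2 cell types. In macrophages it was lowest at ZT14 (9.55 ± 0.630) and highest at ZT18 (14.2 ± 1.48, SD, n = 3 each), the times at which fibroblasts were highest and lowest. The fit across all genes that tests whether the rhythms differ, with both sums of a library kept together, gave C4b an edgeR adjusted p of 0.273 and Cfb an edgeR adjusted p of 0.436. By edgeR 0 of 9 genes passed it after adjustment and 2 were under 0.05 before. Over all 12109 genes, edgeR called 0.694%, and 1286 were under 0.05 before adjustment. DESeq2 called 0 of the 8 genes it gave an adjusted p, against 1.13% of all genes.

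Within the 8 fibroblast subtypes, 56 tests of the 9 genes could be made and 1 passed. C4b in Krtdap fibroblasts had a log2 amplitude of 0.69 with a peak at 13 h and an edgeR adjusted p of 0.0183. The share of all genes called was 8.15% in Pi16, 9.35% in Sult1e1, 5.6% in Krtdap, 2.47% in interferon-response, 1.18% in inflammatory, 0.751% in Cxcl14, 1.1% in Cthrc1 and 1.53% in Cilp fibroblasts. Of the 56 tests, 5 were under 0.05 before edgeR's adjustment. This count is given without the share over all genes in each subtype, and cannot be read as an excess. In the larger sums of all fibroblasts, 3768 of 12791 genes were under 0.05 before edgeR's adjustment. DESeq2 called 2 of the 56, C2 and Cfb in Krtdap fibroblasts, where it called 7.99% of all genes.

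**Figure D3:**
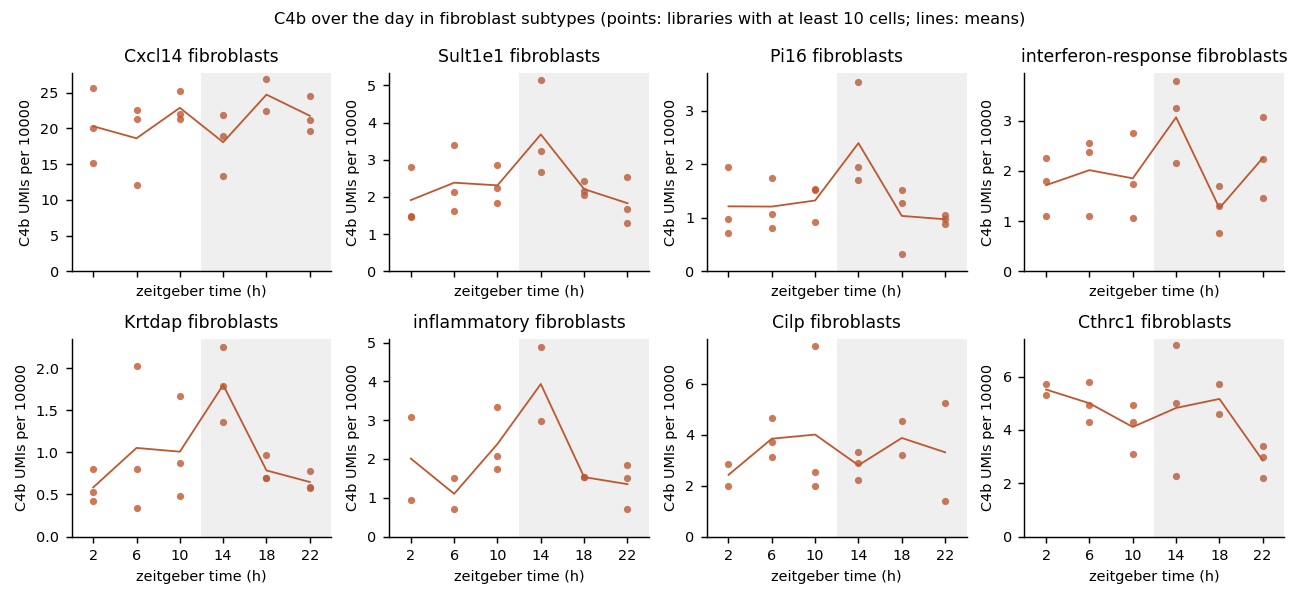
C4b level (UMIs per 10000) against zeitgeber time (h) in each of 8 fibroblast subtypes, with 1 point per library of at least 10 cells, a line through the means and the dark phase in grey. The 3 libraries of ZT14 are high in the Krtdap subtype, at 1.36 to 2.26, and the Cxcl14 subtype has the highest mean at every time.

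In Krtdap fibroblasts, the 3 libraries of ZT14 had C4b levels of 2.26, 1.79 and 1.36 per 10000. Those of ZT2 had 0.528, 0.424 and 0.80, those of ZT18 0.699, 0.693 and 0.966, and those of ZT22 0.574, 0.784 and 0.588. All of these lay below the lowest ZT14 library. At ZT6 the levels were 0.335, 2.03 and 0.80, where the 2.03 rests on 57 C4b UMIs in 14 cells of ZT6 replicate 2, and at ZT10 they were 1.67, 0.874 and 0.482. The share of Krtdap fibroblasts with a C4b UMI was 79.8 ± 12.1% at ZT14 and between 48.9% and 58.7% at the other times (means of 3). At ZT14 it was 93.4% in replicate 1, 75.8% in replicate 2 and 70.2% in replicate 3. These shares were not thinned to equal depth and also depend on the UMIs per cell. The 24 Krtdap cells with most C4b held 10.3% of its 5263 UMIs.

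The call held without TMM scaling (edgeR adjusted p = 0.020), with the replicate number as a block (edgeR adjusted p = 0.0279) and after removing likely doublets (edgeR adjusted p = 0.0199). It was lost with DESeq2 (adjusted p = 0.0651), without ZT14 replicate 2 (edgeR adjusted p = 0.0613) and without ZT2 replicate 2 (edgeR adjusted p = 0.0506), with an amplitude of at least 0.58 whichever library was left out. C2 and Cfb had log2 amplitudes of 0.43 and 0.20 in the same subtype, with peaks at 10.5 h and 12.6 h and edgeR adjusted p of 0.0813 and 0.0686. Cfb was between 2.46 and 2.64 per 10000 at ZT14 and at most 2.36 in the other 15 libraries.

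The markers of the Cxcl14 subtype moved in the same cells. Cxcl14, Steap4 and Gdf10 together were at 0.434 ± 0.0928 per 10000 at ZT14 and 0.368 ± 0.0892 at ZT10 in Krtdap fibroblasts, against 0.149 to 0.194 at the other times (means of 3). The 8 macrophage markers were at 0.190 ± 0.0391 at ZT14 and 0.125 to 0.183 at the other times. The 3 Krtdap markers were at 28.1 ± 5.33 at ZT14 and 19.3 to 30.2 at the other times. The part of these in the C4b result was not tested.

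**Figure D4:**
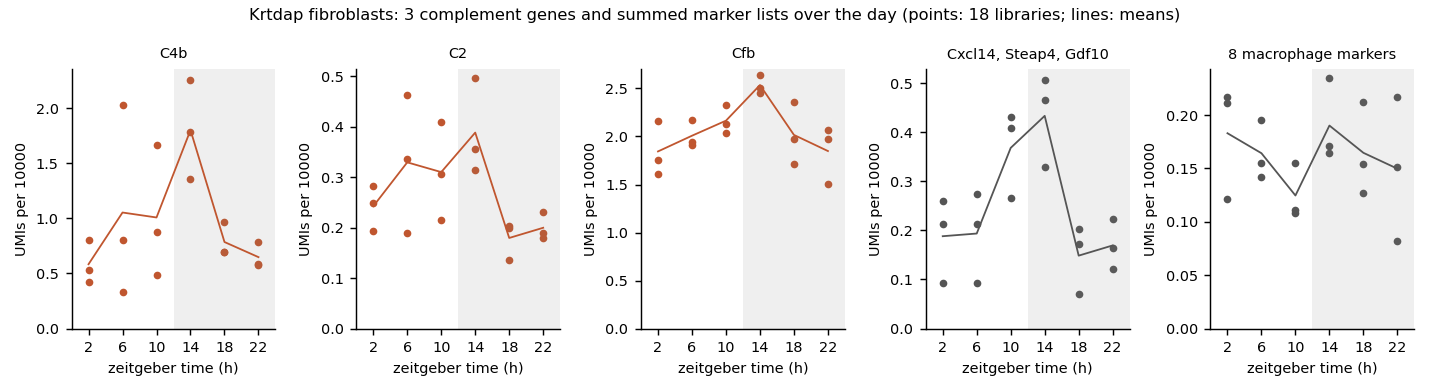
Levels (UMIs per 10000) of C4b, C2 and Cfb (orange) and of the summed Cxcl14-subtype and macrophage markers (grey) in Krtdap fibroblasts against zeitgeber time (h), with 1 point per library, a line through the means and the dark phase shaded. C4b, Cfb and the Cxcl14-subtype markers have their highest means at ZT14, and the macrophage markers vary between 0.0818 and 0.235 over the 18 libraries.

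In the other 7 subtypes C4b did not pass. The log2 amplitude and peak were 0.37 and 12.6 h in Sult1e1 (edgeR adjusted p = 0.0999), 0.36 and 12.5 h in Pi16 (edgeR adjusted p = 0.243) and 0.48 and 12.7 h in inflammatory fibroblasts (edgeR adjusted p = 0.463). They were 0.20 and 12.3 h in interferon-response (edgeR adjusted p = 0.783), 0.16 and 9.85 h in Cthrc1 (edgeR adjusted p = 0.840) and 0.14 and 8.93 h in Cilp fibroblasts (edgeR adjusted p = 0.909). In Cxcl14 fibroblasts they were 0.06 and 18.7 h (edgeR adjusted p = 0.970). Whether the subtypes differ in C4b rhythm was not tested.

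The other genes of the cascade, a list of 46 without the 9, were also unevenly divided between the cell types. Macrophages had C1qa at 60.8 ± 7.89 per 10000 (SD, n = 18), with C1qb and C1qc, the other C1q chains, at 43.9 and 38.5. They also held the ficolin gene Fcna at 8.71, properdin (Cfp) at 7.87 and the C5a receptor C5ar1 at 4.96. In fibroblasts Cd55, the decay-accelerating factor, was at 4.40 and C7, a part of the membrane attack complex, at 1.89. For the C1 complex, the C1q chains were counted mostly in macrophages and the proteases C1ra and C1s1 mostly in fibroblasts.

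Of these 46 genes, 20 could be tested for a 24 h rhythm in fibroblasts and 3 passed, against the 13.3% of all genes. Vtn, which encodes vitronectin, had a log2 amplitude of 0.52 and a peak at 1.75 h (edgeR adjusted p = 0.0220). C1rl, a C1r-like protease gene, had 0.19 and 3.18 h (edgeR adjusted p = 0.0266), and C1qbp, a mitochondrial C1q-binding protein, 0.30 and 11.9 h (edgeR adjusted p = 0.0273). In macrophages 18 were tested and 1 passed, against 0.782% of all 8952 genes by edgeR. It was C5ar1, with a log2 amplitude of 0.40 and a peak at 8.78 h (edgeR adjusted p = 0.00698). The rhythm of 23 was tested for a difference between the cell types and 0 passed after edgeR's adjustment. Before it, 1, Colec12, was under 0.05, against 1286 of all 12109 genes. DESeq2 called Colec12 there, 1 of 21, against 1.13% of the genes it gave an adjusted p. In macrophages DESeq2 gave 16 of the list an adjusted p and called 4, C5ar1, C1qa, C6 and Colec12, against 3.27% of all genes.

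Context lists of interferon, acute phase and dissociation genes gave no call. In fibroblasts, 0 of 10 interferon genes and 0 of 9 acute phase genes passed edgeR's adjusted test, with 0 under 0.05 before adjustment in each. Of 8 genes that respond to tissue dissociation in fibroblasts, 0 passed and 4 were under 0.05 before adjustment, with peaks at 3.63 h for Fosb and 3.44 h for Jun. Over all genes, edgeR put 3768 of 12791 under 0.05 before adjustment in fibroblasts and 1220 of 8952 in macrophages. In macrophages 0 of 10 interferon genes passed and 4 were under 0.05 before adjustment, 0 of 7 acute phase genes with 2, and 0 of 8 dissociation genes with 0. Of 3 adipocyte genes with enough counts, 0 passed in fibroblasts, with 0 under 0.05 before adjustment, and 0 in macrophages, with 1. DESeq2 called 0 in each of these lists, and gave no adjusted p for the adipocyte genes in macrophages.

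Across the 18 fibroblast sums, C1ra, C3 and Serping1 varied together, and C2 with C4b. On log2 scaled counts, Pearson's r was 0.77 between C1ra and Serping1, 0.72 between C3 and C1ra, 0.66 between C3 and Serping1 and 0.70 between C2 and C4b. Between these sets it ran from -0.34 for C2 and Serping1 to -0.02 for C4b and C1ra. It was -0.17 between C2 and C3 and -0.26 between C4b and Serping1. For C1s1, r was 0.59 with C1ra, 0.50 with C3, 0.36 with Serping1, -0.03 with C2 and 0.02 with C4b. Between Cfb and each of the others r was between 0.11 and 0.35. The points share their library, its depth and its mix of subtypes, and the values are descriptive.

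The genes most like each member over the same 18 sums were found among 12790 others and, for C3ar1, among 8951 in macrophages. Serping1 was most like Tshz2 (r = 0.92), C4b most like Max (r = 0.87), C2 most like Col6a5 (r = 0.85), which encodes a collagen VI chain, and C1ra most like Gsn (r = 0.84), which encodes the actin-severing protein gelsolin. Colec12, a collectin gene of the list of 46, came next for C1ra (r = 0.84). C3 was most like Tmed4 (r = 0.83), Cfb most like Selenow (r = 0.82), C1s1 most like Ap3m2 (r = 0.75) and C3ar1 most like Avpi1 (r = 0.88). Each is the highest of many correlations over few sums.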

How the data were processed

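Live cells of the dorsal dermis of 18 mice were profiled by 10x 3′ single-cell RNA sequencing. The authors ran Cell Ranger 3.1.0 on mm10 and deposited raw UMI counts per gene and barcode. Kept were 16877 of 23990 barcodes, those in which at least 850 and at most 7800 genes were detected and mitochondrial transcripts made up less than 13%. Cells were clustered (scanpy 1.11.5, Leiden, resolution 0.8) without the complement and clock genes and named from marker lists. The naming rule was revised after clusters and member levels had been seen, and doublets were removed only in an alternative. Counts were summed per library and cell type, and levels use sums of at least 10 cells. A 24 h rhythm was tested with edgeR 4.0.16 (quasi-likelihood, cosine and sine terms, TMM, low-count filter, Benjamini-Hochberg over all genes). DESeq2 1.42.0 was an alternative. The fits were tested on simulated data with log2 amplitudes of 0.5 and 1. At 0.5, edgeR recovered 94 of 100 changed genes in fibroblasts and 72 of 100 in macrophages. The simulated counts had the same fixed dispersion for every gene, not estimated from these data, so recovery in the real sums may differ. Smaller amplitudes, such as those fitted to the members in all fibroblasts, were not simulated. Members and lists were chosen with earlier results of these data known. The named genes are the 9 members, those of the 46 other complement genes that were called or had the highest levels, and the lowest p in each context list. A gene of the list of 46 that this rule names is not reported here. C5ar1, and the genes that DESeq2 alone called, were named after their values were seen.

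Replicate numbers follow collection days in the labels and were used as a block in an alternative. A source table of the study numbers the hours of these libraries from a later start, by which ZT2 and ZT6 samples would fall on other days than their number, so the pairing is uncertain. Deviations of same-numbered samples had a median correlation of 0.0456 in fibroblasts and 0.0172 in macrophages, against -0.028 and -0.0136 for other numbers. Intervals and limits cover counting error only. Positions are from GENCODE on GRCm38, promoters from RefSeq. The strand setting of the count and the handling of multimapping reads were not given in the sources used here.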

Additional observations from a re-analysis of the deposited data

Results flagged for a closer look

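Cfd was found mostly in barcodes that failed the filter on cells, which no comparison uses. Of its 875 UMIs, 712 lay in 18 of the 7113 barcodes left out, and 163 in cells that passed. The level was 0.211 per 10000 UMIs in the barcodes left out and 0.00497 in the cells kept, and for each of the other 8 genes the level left out was below the level kept. A pair of ZT22 replicate 1 barcodes held 405 and 183 of the Cfd UMIs, together with 198 and 83 UMIs of the 8 adipocyte genes. Their part in the Cfd level was not tested.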

How the results depend on the processing

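In fibroblasts the count of rhythmic members stayed at 0 under 7 of 8 alternatives and was 1 with no low-count filter, where Cfd, with 109 UMIs, passed (edgeR adjusted p = 0.0396). Of those 109 UMIs, 96 lay in ZT22 replicate 1, with 89 in 1 barcode, and the fitted peak was at 21.4 h. In macrophages it stayed at 0 under 8 of 8. The count for the difference in rhythm was 1 with no low-count filter, C4b (edgeR adjusted p = 0.00920), and 0 under the other 3 alternatives. Leaving out each library in turn gave 0 for these 3 counts. The count of rhythmic genes of the wider list in fibroblasts ranged from 1 to 3, with 1 without ZT2 replicate 1 or ZT14 replicate 2. Alternatives for the subtypes were chosen after seeing the data. There the count of 1 became 2 with DESeq2 (C2 and Cfb in Krtdap fibroblasts, adjusted p = 0.0440 and 0.0328) and 2 with the replicate block (C4b and Cfb in Krtdap fibroblasts, edgeR adjusted p = 0.0279 and 0.0367). The block changed no other call of a member. The log2 ratio of C2 between fibroblasts and macrophages, 0.040, was -0.025 with finer clusters, and ranged from -0.023 without ZT14 replicate 2 to 0.11 without ZT18 replicate 2, with -0.015 without ZT10 replicate 3. The cause of these changes was not tested. The macrophage sums held 230601 to 3079945 UMIs, and a rhythm that missed the threshold there is not shown to be absent. The same holds for rhythms of small amplitude in fibroblasts.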
